A study of Mus musculus with 2 samples.

Results

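The genes described here encode the enzymes that add acetyl groups to histone lysines, the enzymes that remove them, and the bromodomain proteins that bind acetylated lysines. They were chosen by gene symbol in the annotation of the probe sets. The rule names no measured value, but it was written with earlier results of these data known, and 41 of the 19505 named genes were found, each with 1 probe set. Of the 41, 16 are deacetylases (10 Hdac genes and 6 sirtuins), 12 are acetyltransferases or coactivators and 13 are readers. Hdac5, Sirt7 and Brd3 were not analysed here.

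Acetylation of histone tails loosens chromatin and gives docking sites to reader proteins, so acetyltransferases and readers are mostly known as coactivators and deacetylases as parts of corepressor complexes. In blood cell development these proteins act in large shared complexes, such as NuRD and SIN3 for Hdac1 and Hdac2, SAGA for Kat2a, and MOZ/MORF for Kat6a and Kat6b. Yeats4, the gene targeted in the study, encodes another kind of acetyl-lysine reader, a YEATS domain protein.

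The study compared sorted innate lymphoid cell (ILC) progenitors of the genotype labelled Yeats4 knockout with those of wild-type littermates, on 1 array each. Both samples were gated on the absence of lineage markers, on CD127 and integrin α4β7, and on intermediate c-Kit and Sca-1. The labels used here do not give the strain, the age, the number of mice pooled or what drove the deletion. A single array stands for each genotype, which leaves no replicate error and allows no test. Differences subtract the wild-type value from the knockout value and are on the log2 scale.

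Yeats4 itself read 5.90 on the knockout-labelled array (KO) and 5.96 on the wild-type array (WT), a difference of -0.06. It is not known here whether its probes cover the deleted stretch, so this value does not check the label. As a description of scatter, the local spread of a gene is the scaled median absolute deviation of differences among the 500 genes closest to it in mean level, and it was 0.34 for Yeats4. The background was set at the 95th percentile of the negative control probes (the control-probe level), 4.73 on the knockout-labelled array and 4.80 on the wild-type array. The higher value was used for both, and a gene below it on both arrays is called near background. A level filter kept genes whose mean over the arrays reached the median of all probe sets (2.88).

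Markers of several other blood cells differed between the arrays, and for others the summed signals were closer while single markers moved both ways. Of the T cell markers 12 of 13 past the level filter were at least 1.5-fold lower on the knockout-labelled array, against 5.15% of all genes past it. Only 4 of the 13 were above the control-probe level on both arrays, and 7 were above it on 1 array alone, where a fold is only a limit. The linear signals of the T cell markers summed to 343.1 on the knockout-labelled array and 960.5 on the wild-type array. B cell markers summed to 761.3 (KO) and 1381 (WT), eosinophil markers to 702.1 (KO) and 2002 (WT), and macrophage markers to 583.8 (KO) and 336.3 (WT). The sums were closer for NK cell markers, with 742.4 (KO) and 804.1 (WT), and for neutrophil markers, with 12648 (KO) and 11284 (WT). Of the 6 NK cell markers past the filter, 3 were above 0 and 3 below, from Ccl5 (-1.78) to Nkg7 (0.53). Near background on both arrays were 7 of 10 NK cell markers. Among 11 neutrophil markers, 6 lay more than 1 local spread below the median of genes of like level and 3 as far above. Mast cell and basophil markers summed to 566.1 (KO) and 540.5 (WT), and erythroid markers to 204.5 (KO) and 179.0 (WT). Of the 4 erythroid markers past the filter 3 were below 0. The 1 above 0 was Car1 (0.42), which alone of the list was above the control-probe level on both arrays. Near background on both arrays were 2 of 13 T cell, 2 of 10 B cell, 2 of 8 eosinophil and 2 of 9 macrophage markers. The same was true of 3 of 5 erythroid and 2 of 7 mast cell and basophil markers. In the list of ILC progenitor and gate markers, 9 of 13 were above the control-probe level on both arrays. The list differed as well, with 5 of the 13 at least 1.5-fold lower on the knockout-labelled array, 2 higher and a median of -0.35. For all genes past the filter the shares were 5.15% lower and 9.16% higher, and the median was 0.08. Id2, a transcriptional regulator required for ILC development, read 9.11 on the knockout-labelled array and 7.88 on the wild-type array (1.23). Nfil3, another such regulator, read 8.49 (KO) and 9.43 (WT; -0.93). In whole sorted samples fewer cells of a type and less RNA per cell cannot be told apart, and the part of these cells and markers in the results below was not tested. The highest difference of all genes past the level filter was that of Eif2s3y (1.78), a Y-linked gene. Whether the samples differ in the sex of the mice, and the part of sex in the results below, was not tested.

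Among the members past the level filter, the differences largest in each direction were those of Kat6b, Brd1 and Sirt6, which were lower on the knockout-labelled array, and Bptf, which was higher. Their promoter windows are printed here to show the sequence next to the start sites of the genes on which the results turn. Each runs 5′ to 3′ on the gene's strand from 250 bases before to 50 bases after a RefSeq start in GRCm38.p6, and for Kat6b and Sirt6, with 2 windows each, the first in the table is shown. Capitals mark the letters GGGCGG (the GC box), CGGAAG (the ETS core) and CACGTG (an E-box) on either strand.
Kat6b chr14:21499520-21499819 (+ strand): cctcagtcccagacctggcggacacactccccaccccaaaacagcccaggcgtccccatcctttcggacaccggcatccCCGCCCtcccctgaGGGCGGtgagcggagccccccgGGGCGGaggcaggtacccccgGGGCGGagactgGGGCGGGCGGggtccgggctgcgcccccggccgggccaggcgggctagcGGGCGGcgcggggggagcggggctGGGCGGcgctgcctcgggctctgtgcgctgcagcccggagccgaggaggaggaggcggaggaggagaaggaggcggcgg
Brd1 chr15:88734170-88734469 (- strand): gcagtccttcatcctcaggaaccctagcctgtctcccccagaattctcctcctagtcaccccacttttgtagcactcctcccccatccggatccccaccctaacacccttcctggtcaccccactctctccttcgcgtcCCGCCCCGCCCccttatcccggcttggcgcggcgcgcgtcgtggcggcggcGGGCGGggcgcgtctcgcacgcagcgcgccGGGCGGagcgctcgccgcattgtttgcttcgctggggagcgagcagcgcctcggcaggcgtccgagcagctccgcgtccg
Sirt6 chr10:81627517-81627816 (- strand): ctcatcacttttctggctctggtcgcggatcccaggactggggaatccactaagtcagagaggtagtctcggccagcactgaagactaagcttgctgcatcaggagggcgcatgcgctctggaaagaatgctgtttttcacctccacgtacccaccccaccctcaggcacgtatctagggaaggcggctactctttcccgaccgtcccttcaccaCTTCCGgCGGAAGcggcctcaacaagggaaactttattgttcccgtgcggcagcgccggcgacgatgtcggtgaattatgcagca
Bptf chr11:107132098-107132397 (- strand): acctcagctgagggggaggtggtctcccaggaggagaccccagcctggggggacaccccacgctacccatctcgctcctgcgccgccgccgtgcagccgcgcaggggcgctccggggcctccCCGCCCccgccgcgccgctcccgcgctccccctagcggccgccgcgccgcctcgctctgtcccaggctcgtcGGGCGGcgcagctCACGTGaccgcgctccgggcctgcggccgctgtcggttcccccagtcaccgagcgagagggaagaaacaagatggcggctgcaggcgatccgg

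The Kat6b window held 8 matches to the GC box, the Brd1 window 4 and the Bptf window 2, whereas the Sirt6 window held none and carried 2 ETS cores back to back. Neighbouring GC boxes in the Kat6b and Brd1 windows share letters. The single E-box match lay in the Bptf window. The windows had GC contents of 78.3% (Kat6b), 70.0% (Brd1), 57.3% (Sirt6) and 76.3% (Bptf). Windows were found for 33 of the 41 genes, 47 windows in all. The GC box was in 63.8% of them, against 35.7% of all 32851 windows, and the median number of CpG dinucleotides was 23, against 7. The ETS core was in 21.3% of the genes' windows, against 16.9% of all, and the E-box in 8.51%, against 7.15%. These are letter matches, and nothing about binding was measured.

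Transcripts of this machinery were mostly detected and differed little between the arrays. Of the 41 genes 26 (63.4%) were above the control-probe level on both arrays, against 26.7% of all named genes. Near background were 12 of the 41, and the other 3 (Kat6b, Kat8 and Sirt6) were above it on the wild-type array alone. The level filter kept 37 of the 41. Brdt, Cecr2, Kat2b and Mllt3 did not pass.

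**Figure D1:**
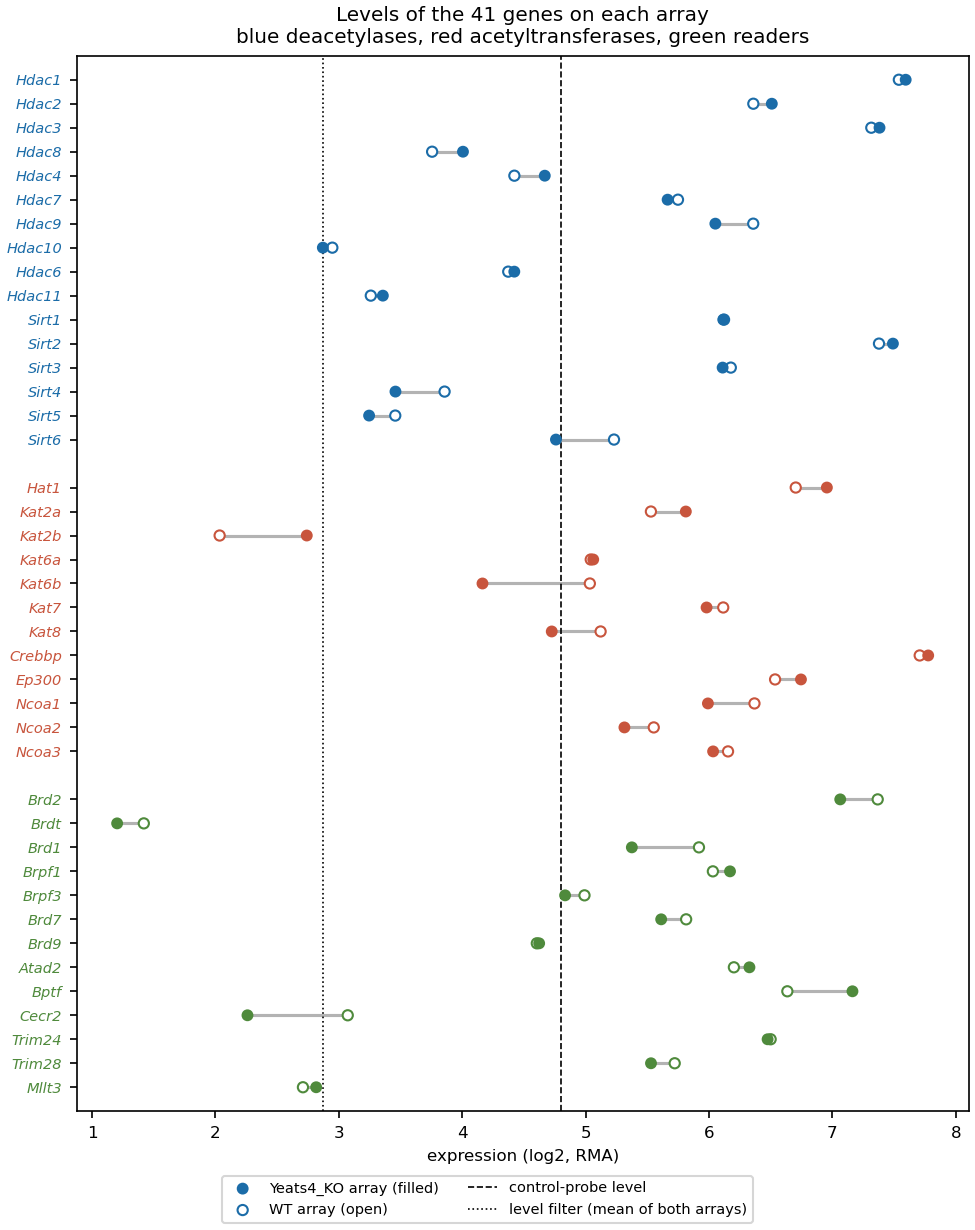
Expression of the 41 genes (log2, RMA) on the Yeats4_KO array (filled points) and the WT array (open points), 1 array each, in the order deacetylases, acetyltransferases and readers. The dashed line is the control-probe level (4.80) and the dotted line the level filter (2.88); for 26 genes both points lie right of the dashed line, and the widest gap among genes past the filter is that of Kat6b.

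Among the 37 genes past the filter, 1 was at least 1.5-fold lower on the knockout-labelled array and 0 were at least 1.5-fold higher. Over all 10881 genes past the filter the shares were 5.15% lower and 9.16% higher, and at 2-fold 0.781% lower and 1.56% higher, a size that 0 of the 37 reached. The median difference of the 37 was -0.02, with the middle of the distribution between -0.21 and 0.11 (quartiles), while that of all genes past the filter was 0.08 (quartiles -0.18 and 0.33). Below 0 were 20 of the 37. Because differences of all genes varied with level, each gene was also set against the median of the 500 nearest genes. Below that local median were 30 of the 37 (81.1%), against 50.1% of all genes past the filter, and the median distance from it was -0.16. Within 1 local spread of it were 27 of the 37 (73.0%), against 68.7% of all. Of the 10 outside, 9 lay low (Kat6b, Brd1, Sirt6, Kat8, Ncoa1, Hdac9, Brd2, Brd7 and Trim28) and 1 lay high (Bptf).

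**Figure D2:**
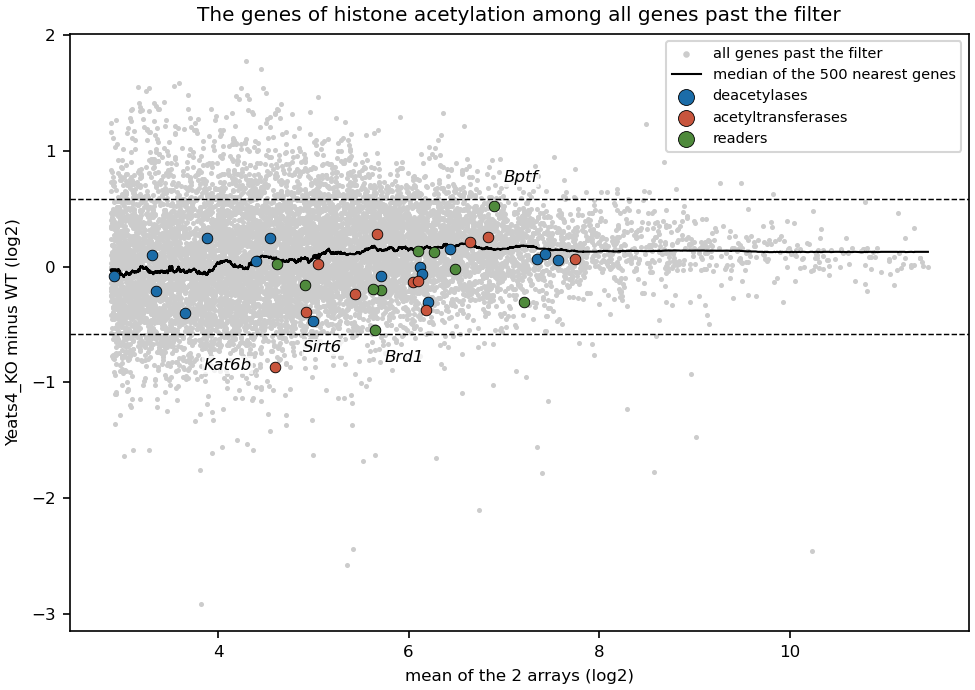
Difference between the arrays (Yeats4_KO minus WT, log2) against the mean of the arrays for all 10881 genes past the filter (grey) and the 37 genes of histone acetylation (coloured by class); the black line is the median of the 500 genes nearest in level and the dashed lines mark 1.5-fold. Of the coloured points 30 lie below the black line, and Kat6b alone lies beyond a dashed line.

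The class I deacetylases, the catalytic cores of the corepressor complexes, were close to equal on the arrays. Hdac1 read 7.59 on the knockout-labelled array and 7.54 on the wild-type array (difference 0.06), and its paralog Hdac2 read 6.51 (KO) and 6.36 (WT; 0.15). Hdac3, the enzyme of the NCoR complex, read 7.38 (KO) and 7.32 (WT; 0.07). All 3 were above the control-probe level on both arrays, and their differences were smaller than the local spreads of 0.24, 0.30 and 0.25. Since the median of all genes past the filter was 0.08, the sign of such small values depends on the scaling, and each of the 3 was below 0 after a loess correction on level (-0.09 for Hdac1, -0.01 for Hdac2 and -0.08 for Hdac3). Hdac8, X-linked and near background, was at 0.25.

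Class IIa deacetylases shuttle between nucleus and cytoplasm and bind MEF2 factors, and Hdac7 is best known in lymphoid cells. Hdac9 showed the largest difference of any Hdac gene, with 6.05 on the knockout-labelled array and 6.36 on the wild-type array (-0.31, local spread 0.29), and 39 of the 500 genes nearest in level had a lower difference. Hdac7 read 5.66 (KO) and 5.75 (WT; -0.08), and Hdac4, near background, 4.67 (KO) and 4.42 (WT; 0.25). Hdac7 and Hdac9 were above the control-probe level on both arrays. Class IIb held Hdac6, the cytoplasmic tubulin deacetylase (0.05), and Hdac10, a polyamine deacetylase (-0.08), and class IV held Hdac11 (0.10). These last 3 were near background on both arrays.

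Sirtuins remove acyl groups with NAD as a cosubstrate. All 6 lay below the median of genes of like level, against 81.1% of the 37 members and 50.1% of all genes past the filter. All 4 MYST enzymes and all 3 p160 coactivators, described below, lay below it as well. The lowest was Sirt6, a nuclear enzyme linked to genome stability and glycolytic genes. It read 4.76 on the knockout-labelled array, under the control-probe level, and 5.23 on the wild-type array. Its measured difference was -0.47 (local spread 0.39), and with the lower reading only bounded it was at least 1.34-fold lower. Of the 500 nearest genes 33 had a lower difference. Sirt1, the nuclear relative best studied in metabolism, read 6.12 on both arrays (-0.01). Sirt2 read 7.49 (KO) and 7.38 (WT; 0.11) and the mitochondrial Sirt3 6.11 (KO) and 6.18 (WT; -0.07). The other mitochondrial sirtuins, Sirt4 (-0.40) and Sirt5 (-0.21), were near background. Sirt2 was the only one of the 6 above 0. It was at -0.04 after the loess correction but stayed above 0 with centring (0.03) and quantile normalization (0.01). Over the 6 the median was -0.14, but only 3 of them were above the control-probe level on both arrays. Those were Sirt1 (-0.01), Sirt2 (0.11) and Sirt3 (-0.07).

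**Figure D3:**
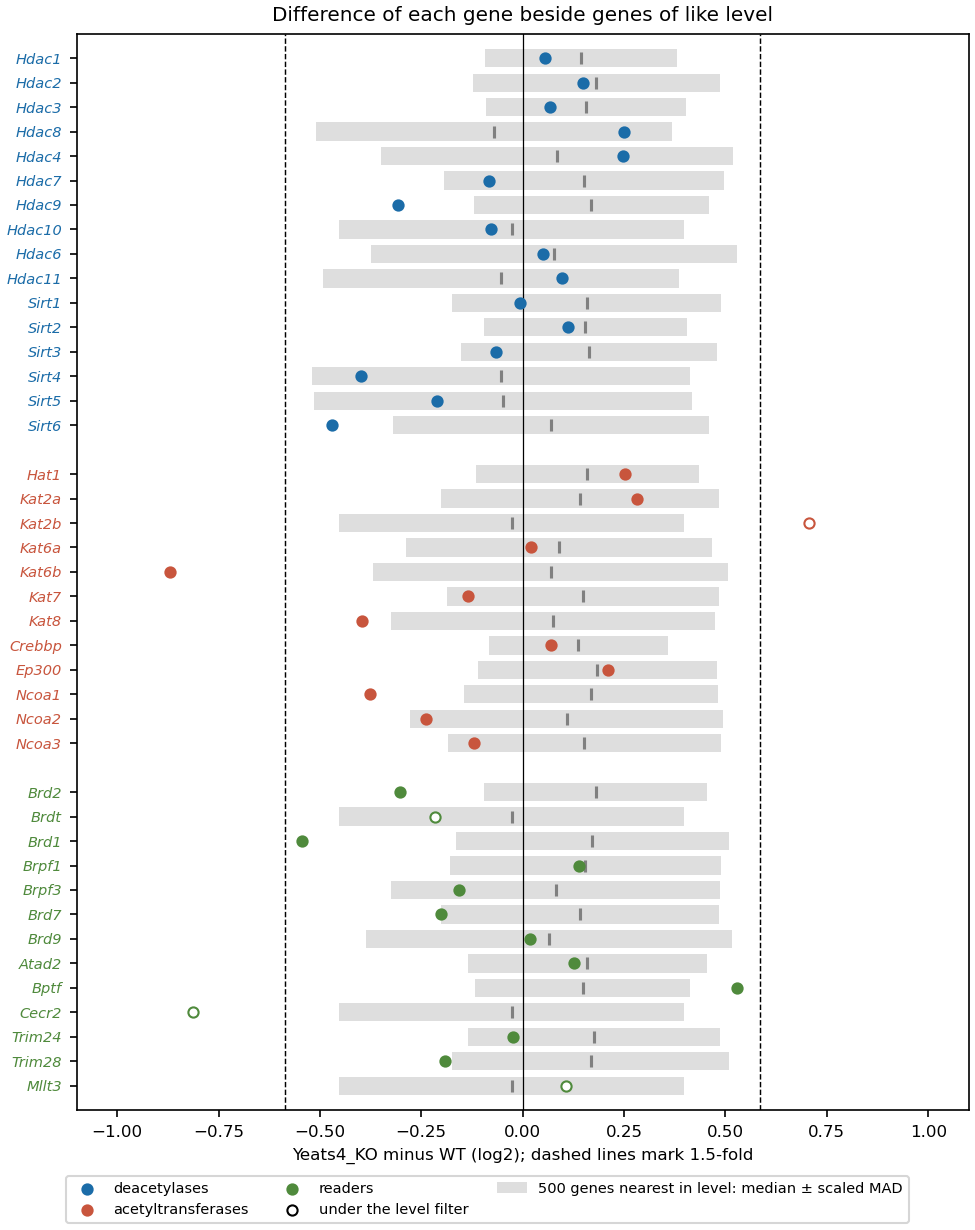
Difference of each of the 41 genes (Yeats4_KO minus WT, log2; points, open where the gene was under the level filter) beside the median ± 1 local spread of the 500 genes closest in level (grey bars), which is no replicate error. Dashed lines mark 1.5-fold. Kat6b at -0.87, Brd1 at -0.54 and Bptf at 0.53 lie outside their bars, and the class I deacetylases lie inside theirs.

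The acetyltransferases are given by family. The 4 MYST enzymes had a median of -0.27, while the GNAT enzymes past the filter, Kat2a and Hat1, were at 0.28 and 0.25. The difference between these families was not tested. Kat6b, the MYST enzyme also called MORF, read 4.16 on the knockout-labelled array, under the control-probe level, and 5.03 on the wild-type array. The measured difference was -0.87, or 1.83-fold, with a local spread of 0.44, and 7 of the 500 nearest genes had a lower difference. Because the lower reading was only bounded by the control-probe level, Kat6b was at least 1.17-fold lower. It was the only member past the filter to reach 1.5-fold, and with values under the control-probe level raised to it the difference was -0.23. Its paralog Kat6a (MOZ), which is required by blood stem cells, read 5.06 (KO) and 5.04 (WT; 0.02) and was above that level on both arrays. Kat8 (MOF), the histone H4 acetyltransferase of the MSL and NSL complexes, read 4.73 (KO) and 5.12 (WT; -0.40, local spread 0.40) and was at least 1.25-fold lower. Kat7 (HBO1), linked to replication origins, read 5.98 (KO) and 6.12 (WT; -0.13).

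Of the GNAT enzymes, Kat2a (GCN5) read 5.81 on the knockout-labelled array and 5.53 on the wild-type array, and Hat1, which acetylates newly made histone H4 before its deposition, read 6.96 (KO) and 6.70 (WT). Neither difference exceeded its local spread (0.34 and 0.27). Kat2b (PCAF), the paralog of Kat2a, was under the level filter and near background with 2.74 (KO) and 2.03 (WT; 0.71), so it was not counted. Hat1 serves replicating cells, and most cell cycle genes also lay above 0. Of the 29 cell cycle genes past the filter 28 were above 0, against 58.2% of all genes past it, and their median was 0.31, against 0.08. At least 1.5-fold higher were 5 of the 29 and lower 1, against 9.16% and 5.15% of all genes. With both arrays above the control-probe level 1 was higher and 0 were lower. The higher ones were Hmmr (1.28), Gins1 (0.99), Cdc45 (0.78), Cenpf (0.70) and Bub1 (0.64), and the lower one was Ung (-1.04). Of these 6, only Cdc45 was above the control-probe level on both arrays. The part of cycling cells in the values of Hat1 was not tested.

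The general coactivators CBP and p300 were close to equal. Crebbp, which encodes CBP, read 7.78 on the knockout-labelled array and 7.71 on the wild-type array (0.07), and Ep300 read 6.75 (KO) and 6.54 (WT; 0.21). Both were within 1 local spread of genes of like level. The p160 coactivators, which bring CBP and p300 to nuclear receptors, all lay below 0. Ncoa1 read 5.99 (KO) and 6.37 (WT; -0.38, local spread 0.31), Ncoa2 5.31 (KO) and 5.55 (WT; -0.24) and Ncoa3 6.03 (KO) and 6.15 (WT; -0.12). Ncoa1 was the lowest of the 3, with 26 of the 500 nearest genes below it. Ncoa2 and Ncoa3 stayed within 1 local spread of the median of genes of like level.

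Among the readers past the filter, the scaffold bromodomain proteins of the MYST complexes included the lowest value and a remodeller subunit the highest. Brd1, also called BRPF2, links HBO1 or MOZ/MORF enzymes to chromatin. It read 5.38 on the knockout-labelled array and 5.92 on the wild-type array, above the control-probe level on both. The difference of -0.54 (1.46-fold, local spread 0.34) was just under the 1.5-fold threshold as deposited, and 17 of the 500 nearest genes were lower. After centring, quantile normalization or the loess correction it was past the threshold (-0.63, -0.66 and -0.68). The related scaffolds were Brpf1 with 6.17 (KO) and 6.03 (WT; 0.14) and Brpf3 with 4.83 (KO) and 4.99 (WT; -0.16), both within their local spreads of 0.33 and 0.41.

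Bptf, the largest subunit of the NURF remodelling complex, whose PHD finger and bromodomain bind methylated and acetylated histone tails, read 7.16 on the knockout-labelled array and 6.64 on the wild-type array. Its difference was 0.53 (1.44-fold, local spread 0.27), 31 of the 500 nearest genes were higher, and no other member past the filter had so high a difference. After the loess correction it was 0.37. Brd2, the BET protein measured above background, read 7.06 (KO) and 7.37 (WT; -0.30, local spread 0.28), with 33 of the 500 nearest genes below it. Its germ cell relative Brdt was under the filter and near background with 1.20 (KO) and 1.42 (WT). Brd7, of the PBAF form of SWI/SNF, was at -0.20 and Trim28, the corepressor of KRAB zinc finger proteins, at -0.19. Little difference was seen for Trim24 (-0.02), Brd9 (0.02, near background) and the E2F coactivator Atad2 (0.13). Atad2 read 6.33 (KO) and 6.20 (WT). The 29 cell cycle genes past the filter had a median of 0.31 (quartiles 0.15 and 0.45). The part of cycling cells in the value of Atad2 was not tested. Cecr2 (-0.81), a bromodomain partner of ISWI remodellers, and Mllt3 (0.11), a YEATS domain reader of the super elongation complex, were under the filter and near background on both arrays.

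Partner subunits of the enzymes were counted in the same way. The lists of partners were written with earlier results of these data known, and the division into complexes was made, and their subunits named, after the values were seen. Of the 36 acetyltransferase complex subunits past the filter, 30 were above 0 and the median was 0.23, against 58.2% above 0 and a median of 0.08 for all genes past the filter. At least 1.5-fold higher were 2 of the 36 and lower 0, near or below the background shares of 9.16% and 5.15%. They were Supt3, a SAGA core subunit (1.01, under the control-probe level on the wild-type array and at least 1.09-fold higher), and Sgf29, a tudor domain reader shared by SAGA and ATAC. Sgf29 read 6.88 on the knockout-labelled array and 6.27 on the wild-type array (0.61, local spread 0.29). Next came Msl2 (0.51, at least 1.11-fold). In SAGA and ATAC, the complexes of Kat2a and Kat2b, 21 of 23 subunits past the filter were above 0 with a median of 0.24. Below the median of genes of like level were 3 of 23, against 50.1% of all genes past the filter. Within 1 local spread of it were 21 of the 23 (91.3%), against 68.7% of all. Of the 23, 13 were above the control-probe level on both arrays, 4 on 1 array alone, and 6 were near background.

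In MSL and NSL the enzyme lay below 0 and most of its partners above it, where 58.2% of all genes past the filter also lay. Kat8 was at -0.40, about its local spread of 0.40, and under the control-probe level on the knockout-labelled array. The other MSL subunits were at 0.22 (Msl1), 0.51 (Msl2, under that level on the wild-type array) and 0.37 (Msl3). Of the other NSL subunits past the filter 5 of 6 were above 0. Among them were Wdr5 (0.46) and Mcrs1 (0.50, under the control-probe level on the wild-type array and at least 1.15-fold higher). The MOZ/MORF subunits had a median of -0.16. Below the median of genes of like level lay 6 of 7, against 50.1% of all genes past the filter. Most of the 7 (Kat6a, Kat6b, Brpf1, Brpf3 and Brd1) are members already counted above, so these values largely repeat the members' own. The partners outside the members went both ways. Meaf6 was at -0.24, under the control-probe level on the knockout-labelled array, and Ing5, near background, at 0.23. HBO1 subunits, of which Brd1, Ing5 and Meaf6 are shared with MOZ/MORF and Brd1 and Kat7 are members, had a median of -0.13. No difference between complexes was tested.

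The deacetylase complex subunits had a median near that of all genes, and most lay below genes of like level. Of 32 past the filter, 19 were above 0, the median was 0.03, and 0 reached 1.5-fold in either direction. Among all genes past the filter 58.2% were above 0, 9.16% were at least 1.5-fold higher and 5.15% lower. Below the median of genes of like level were 23 of the 32 (71.9%), against 50.1% of all genes past the filter, with a median distance of -0.11. By complex, with the Hdac members counted in, 6 of 7 subunits of CoREST, 4 of 4 of NCoR and 4 of 5 of MiDAC lay below it. The counts were 9 of 13 for NuRD and 9 of 13 for SIN3. The largest differences were those of Arid4a (0.58) and Ing2 (0.50), both of SIN3, and Mbd3 (0.45), of NuRD. Arid4a and Mbd3 were under the control-probe level on the wild-type array and at least 1.24-fold and 1.02-fold higher. The medians were 0.08 for NuRD, 0.06 for SIN3, 0.06 for CoREST and 0.05 for NCoR, all of which include Hdac1, Hdac2 or Hdac3. Among NuRD subunits the ATPase Chd3 was lowest, with 5.35 on the knockout-labelled array and 5.71 on the wild-type array (-0.36). Ncor1 and Chd4 were not analysed here.

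**Figure D4:**
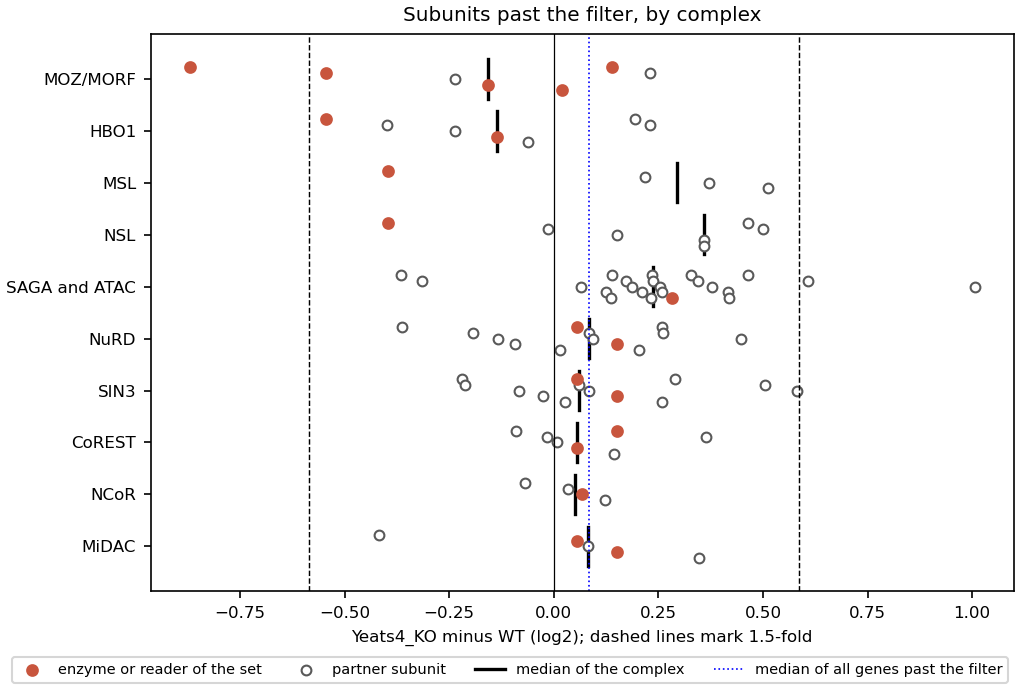
Difference (Yeats4_KO minus WT, log2) of each subunit past the filter, by complex; filled points are the enzymes and readers of the 41 genes, open points their partner subunits, black bars the medians and the blue dotted line the median of all genes past the filter (0.08). A protein of several complexes appears in each. Kat8 at -0.40, under the control-probe level on the Yeats4_KO array, stands left of its MSL and NSL partners. Right of 0 lie 21 of 23 SAGA and ATAC points, against 58.2% of all genes past the filter.

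Other bromodomain proteins, outside the set, were likewise without a 1.5-fold difference. Of 17 past the filter 11 (64.7%) were above 0, against 58.2% of all genes past the filter, with a median of 0.10. Over all genes the 1.5-fold shares were 9.16% higher and 5.15% lower, so few calls would fall among 17 genes. Smarca2, an ATPase of SWI/SNF, read 5.98 on the knockout-labelled array and 5.50 on the wild-type array (0.48), and Pbrm1, which holds many bromodomains, was at 0.48 and at least 1.29-fold higher. Brwd3 (-0.45), the lowest of them, was near background.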

How the data were processed

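Expression was measured on 2 Affymetrix arrays, 1 for sorted Yeats4 knockout progenitors and 1 for wild-type progenitors. The deposited table holds log2 values, made by the authors, per the submitters' processing notes, with the tools Affymetrix Power Tools and RMA, that is, background correction, quantile normalization and summary of probes. Such scaling hides a change of total RNA per cell. Versions and build are not stated in the sources used here, scanner intensities were not used, and the array type is unsettled, because the design text names a Mouse Gene 2.0 protocol while the probe sets match another mouse design. The number of arrays limits the precision.

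Of 29129 probe sets, 19572 had 1 gene symbol, none had several and the rest had none. For a gene with several, the brightest (by mean) stood for it. All 41 gene identifiers matched the reference table (GRCm38.p6, used for names and promoter windows). The medians of all probe sets were 2.87 (knockout) and 2.91 (wild type), and the arrays correlated with r = 0.965 over the 10881 genes past the filter, which are not independent replicates. A fold is given as a limit against 4.80 where 1 array lay under that level. Members and lists were chosen with earlier results of these data known. The rule for names allowed every member and, from each list, the 3 largest differences and those of 1.5-fold, up to 6; other subunits and Acss2 were named after their values were seen. Alternatives were other level filters, centring, loess (span 0.3), quantile normalization, the mean of probe sets, raised low values, 2-fold and 3 local spreads. A filter on both arrays was added after seeing the data. The scripts were tested on simulated data. Python 3.11.15, numpy 2.4.6, pandas 2.3.3 and statsmodels 0.14.6 were used.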

Additional observations from a re-analysis of the deposited data

How the results depend on the processing

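No paired analysis was possible because each genotype has 1 array. The 1 member at least 1.5-fold lower (Kat6b) was past the threshold only with low readings kept. The count was 0 with the level filters at the 75th percentile (28 members kept) and at the control-probe level (28), with both arrays above that level (26), with low values raised to it, at 2-fold and at 3 local spreads. It was 2 with centring, loess and quantile normalization, where Brd1 joined Kat6b, and with no level filter, where Cecr2 did; without a filter 1 member, Kat2b, was higher. With both arrays above the control-probe level the background shares were 1.44% lower and 6.37% higher. The members' median (-0.02) was -0.16 with loess, -0.14 with quantile normalization and 0 with raised values. The cell cycle median (0.31) was 0.17 with loess and 0.19 with quantile normalization. That of deacetylase complex subunits (0.03) was -0.056 with centring, -0.12 with loess and -0.10 with quantile normalization, so its sign is not settled. That of other bromodomain proteins (0.10) was -0.0026 with loess. That of acetyl-CoA and NAD supply (0.16) was 0.043 with loess, 0.061 with quantile normalization and 0 with raised values, and that of elongation partners (0.11) was 0 with raised values. The count of cell cycle genes at least 1.5-fold higher (5) was 1, and of those lower (1) was 0, with the 3 stricter level filters and with raised values. The count of elongation partners lower (1) was 0 under the same 4 settings. The count of acetyltransferase complex subunits higher (2) was 1 under them and with centring, loess and quantile normalization. With no level filter 1 deacetylase complex subunit (0) and 3 genes of acetyl-CoA and NAD supply (2) were higher. The level filters change only which genes are counted, and each member has 1 probe set, so filters and the mean of probe sets could not move single differences. Under centring, loess, quantile normalization and raised values, 38 of the 41 moved by less than 1 local spread. The exceptions were Kat6b, Kat2b and Cecr2 with raised values. The causes of these shifts were not tested. Loess gave 9 members another sign, quantile normalization 7 and centring 6, and 12 of 41 genes lay near background, where a difference cannot be read.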

Other observations

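Among these proteins the acetyltransferases use acetyl-CoA and the sirtuins use NAD. Genes of the supply of both compounds had a median above that of all genes, with single genes on both sides of 0. Of the 13 genes of acetyl-CoA and NAD supply past the filter, 9 were above 0, the median was 0.16, and 2 were at least 1.5-fold higher and 0 lower, against 9.16% and 5.15% of all genes past the filter. The 2 were subunits of the pyruvate dehydrogenase complex. Dlat, its acetyltransferase core, read 5.97 on the knockout-labelled array and 5.10 on the wild-type array (0.86, 1.82-fold), and Dld, a subunit that other dehydrogenase complexes share, read 6.40 (KO) and 5.59 (WT; 0.81, 1.75-fold). Both were above the control-probe level on both arrays. A further subunit, Pdhb, was at 0.41. The lowest of the list was Acss2, which makes acetyl-CoA from acetate, with 4.25 on the knockout-labelled array and 4.57 on the wild-type array (-0.33), near background on both.

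Elongation factors that work with acetyl-lysine readers lay close to all genes, with a median of 0.11 over the 13 past the filter and 9 above 0. At least 1.5-fold lower was Ell (-0.61), near background on both arrays, and 0 were higher. Among all genes past the filter 5.15% were lower, 9.16% higher and 58.2% above 0. Larp7, which holds P-TEFb in its inactive form, read 5.59 on the knockout-labelled array and 5.04 on the wild-type array (0.55), and Mllt1, a YEATS domain relative of Mllt3, was at 0.51 and near background.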
